A study of Homo sapiens with 6 samples.

Results

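Ribosome biogenesis factors are proteins that make, modify and assemble the ribosome without being part of the finished particle. A fixed list of 40 such genes was looked up by symbol in RNA-seq values of K562 cells, and 37 of them had a row, among 17066 distinct gene names in all. NOP56, RRS1 and PPAN had no row in the 3 tables and were not analysed here. K562 is a human leukemia line, long established in culture and of erythroid character, that expresses neither isoform of C/EBPα, a transcription factor needed for making granulocytes. Stable lines carried by a PiggyBac transposon a doxycycline-inducible cassette for wild-type C/EBPα (CEBPA), for its shorter isoform C/EBPα-p30 (P30), which lacks the N-terminal transactivation domain, or an empty vector (CTR). The paper states that the CEBPA mRNA can give both the full-length protein and p30. Its legend to a western blot names both isoforms for the CEBPA line. All 3 lines received 200 ng/ml doxycycline for 48 h, so that the control group shares the drug, and no untreated sample was among the 6 samples. There were 2 biological replicates per line, sequenced in separate runs, and the deposited FPKM (fragments mapped, scaled to transcript length and to library size) joins both replicates of a group into 1 value per gene. From these values no replicate spread, error or test can be computed, FPKM alone does not give the depth behind a value, and differences between lines made separately and effects of the transgene cannot be told apart. A change is the log2(FPKM + 1) of 1 group minus that of another, which makes changes of weakly expressed genes look smaller than they are, and genes at or under 1 FPKM in both groups were left out. Where the groups are not named, 3 levels in a row are those of CTR, P30 and CEBPA.

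Ribosome production begins in the nucleolus, where RNA polymerase I transcribes the long precursor of ribosomal RNA. Small nucleolar RNAs (snoRNAs) with their bound proteins guide chemical modification of this precursor, box C/D particles for methylation of the ribose and box H/ACA particles for pseudouridine. A large assembly, the small subunit processome, then folds and cleaves the precursor, and separate sets of factors mature the small and the large subunit before export to the cytoplasm. Growing cells spend much of their energy on this pathway, and many of its genes are known targets of the transcription factor MYC.

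The labels were checked with lineage markers. The 4 erythroid markers used (GATA1, ALAS2, HEMGN and KLF1) were at least 2-fold lower in CEBPA than in CTR, and their levels summed to 552, 373 and 139 FPKM. In P30 over CTR they differed among themselves, with log2 changes of -1.71 for ALAS2, -1.50 for HEMGN, -0.47 for KLF1 and 0.06 for GATA1. HEMGN was at 0.18 in CEBPA over P30. The 4 granulocyte markers with a row (S100A8, S100A9, CSF3R and CEBPE) were at least 2-fold higher in CEBPA, and their levels summed to 4.44, 27.7 and 8424 FPKM. Their log2 changes in P30 over CTR were 3.09 for S100A9, 2.76 for S100A8, 1.77 for CEBPE and -0.04 for CSF3R. MPO had no row and was not analysed here. No marker with a row was at 0 in any group. The part of this change of cell state in the values that follow was not tested, and in bulk RNA fewer cells of a type and less RNA per cell cannot be told apart.

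As a group, the 37 biogenesis factors had a median change in CEBPA cells near that of all genes, but single members stood apart in both directions. The median log2 change in CEBPA over CTR was -0.00, with 18 members higher and 19 lower. It was -0.01 for all 13673 genes compared and -0.07 for those over 5 FPKM. Changes past 1.5-fold were rarer than among all genes, at 13.5% higher and 8.11% lower against 24.0% and 18.6%. The largest differences were those of RRN3 and NOP10, which were over 2-fold higher in CEBPA, followed by UBTF and FBL, over 1.5-fold lower, by WDR75, over 1.5-fold higher, and by BOP1, over 1.5-fold lower. In P30 cells every member stayed within 1.5-fold of CTR. The plot of changes shows the 37 members by their role in the pathway.

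**Figure D1:**
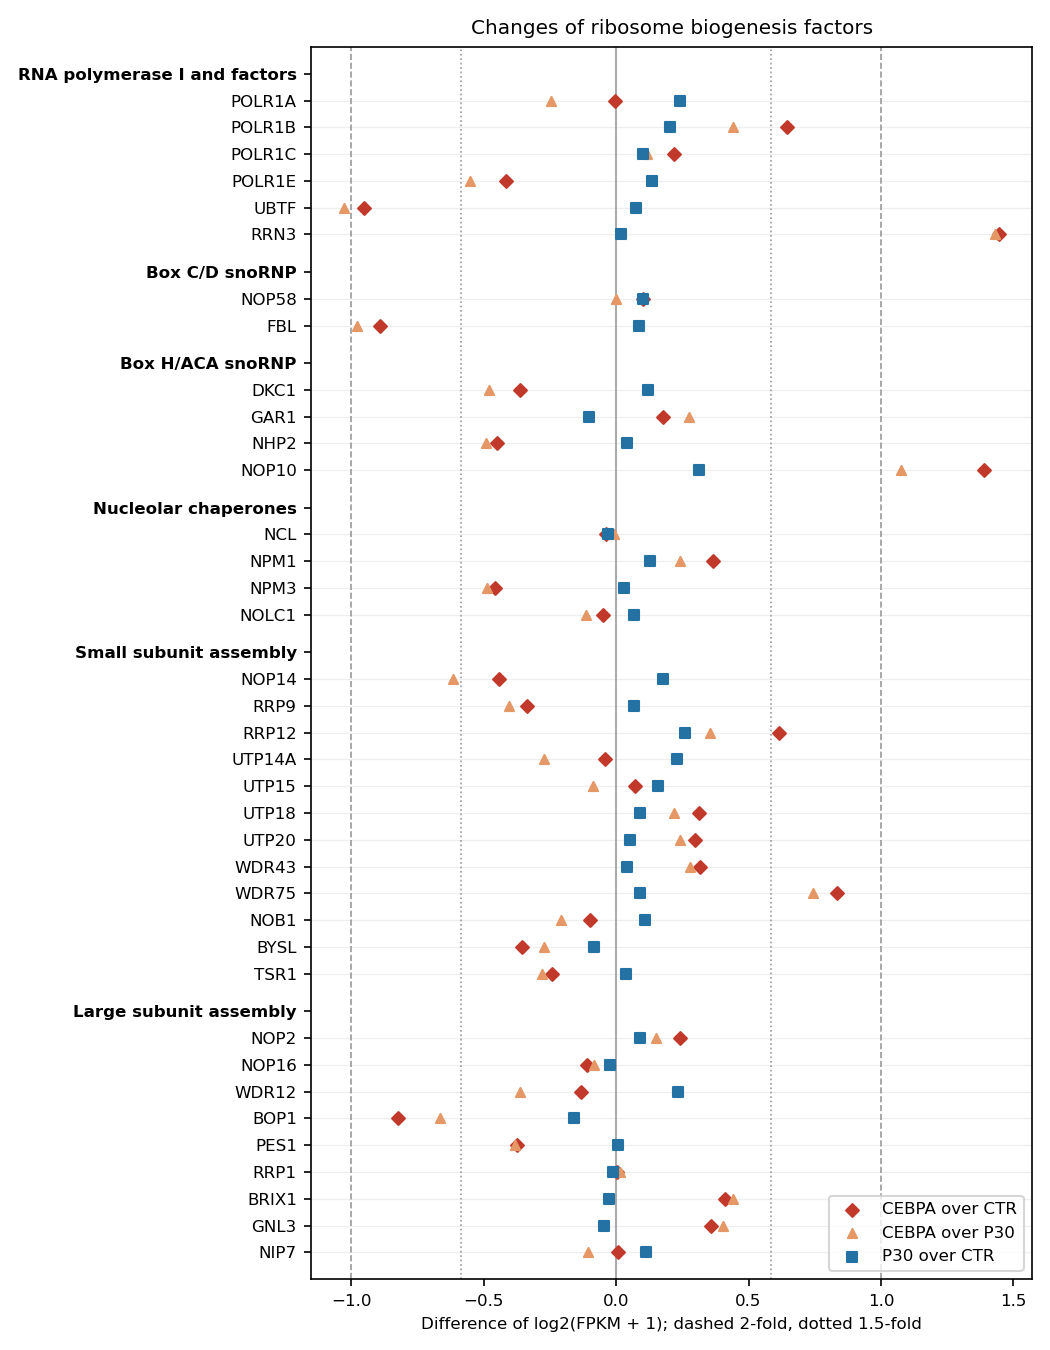
Difference of log2(FPKM + 1) for each of the 37 biogenesis factors (rows, by role) in CEBPA over CTR (red diamonds), CEBPA over P30 (orange triangles) and P30 over CTR (blue squares), 1 pooled value per group and no error. RRN3 and NOP10 lie beyond the dashed 2-fold line on the right in both CEBPA comparisons, UBTF, FBL and BOP1 lie beyond the dotted 1.5-fold line on the left, and the P30 squares stay between -0.16 and 0.31.

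In CEBPA over CTR, 2 of the 37 members stood 2-fold or more above CTR and 0 stood as far below it, where the shares among all genes compared were 14.0% and 6.92%. At 1.5-fold, 5 members (RRN3, NOP10, WDR75, POLR1B and RRP12) were higher and 3 (UBTF, FBL and BOP1) lower, against 24.0% and 18.6% of all genes. The other 29 members differed by less than 1.5-fold. In CEBPA over P30, 2 members stood 2-fold or more above P30 and 1, UBTF, as far below it, with 13.1% and 5.79% among all genes. At 1.5-fold, 3 members (RRN3, NOP10 and WDR75) were higher and 4 (UBTF, FBL, BOP1 and NOP14) lower, with 22.3% and 17.8% among all genes. NOP14 lay inside 1.5-fold, at -0.58, after centring on the median of all genes, which left 3 lower. The median of the members in this comparison was -0.09, that of all genes was -0.04 and that of genes over 5 FPKM was -0.10. In P30 over CTR no member reached 1.5-fold in either direction, where 2.69% of all genes were higher and 2.63% lower by that much, and 1.02% and 0.613% by 2-fold. With 1 pooled value per group these counts have no test. The shares beyond 1.5-fold in CEBPA over CTR were 13.5% and 8.11% of the members. Since every member exceeded 6 FPKM, they may also be set beside the 10117 genes over 5 FPKM, of which 20.5% were higher and 20.0% lower by 1.5-fold.

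The members spread less than all genes compared did. Their scaled median absolute deviation in CEBPA over CTR reached 0.49, where all genes compared had 0.73 and those above 5 FPKM had 0.68. The related lists described below spread less than the members there, from 0.21 for cytosolic to 0.41 for mitochondrial ribosomal proteins. In P30 over CTR the deviation was 0.08 for the members, 0.20 for all genes and 0.18 for those above 5 FPKM. The related lists had 0.07 to 0.16 in P30 over CTR. Both comparisons with CEBPA contain the same CEBPA libraries, so that their values for a member are not independent. CEBPA was above both other groups in 16 members, below both in 19 and between them in UTP15 and NIP7. The same counts over all genes were not computed, so that nothing particular to the members can be read from these.

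The levels of the members covered a wide range in each group. In CTR they ran from 6.52 FPKM for UTP20 to 881 for NPM1, with a median of 40.1 FPKM. After NPM1 came FBL, NOP10, NCL, NHP2 and DKC1, which were the other members over 100 FPKM in CTR. In CEBPA the highest levels were those of NPM1 and NOP10, and only 4 members exceeded 100 FPKM, since NHP2 and DKC1 were at 96.4 and 87.0. Summed over the 37 members, the levels were 2959, 3164 and 3433 FPKM. Without NPM1 and NOP10 the sums were 1851, 1920 and 1700.02 FPKM, so that these 2 genes alone carried the higher total in CEBPA.

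**Figure D2:**
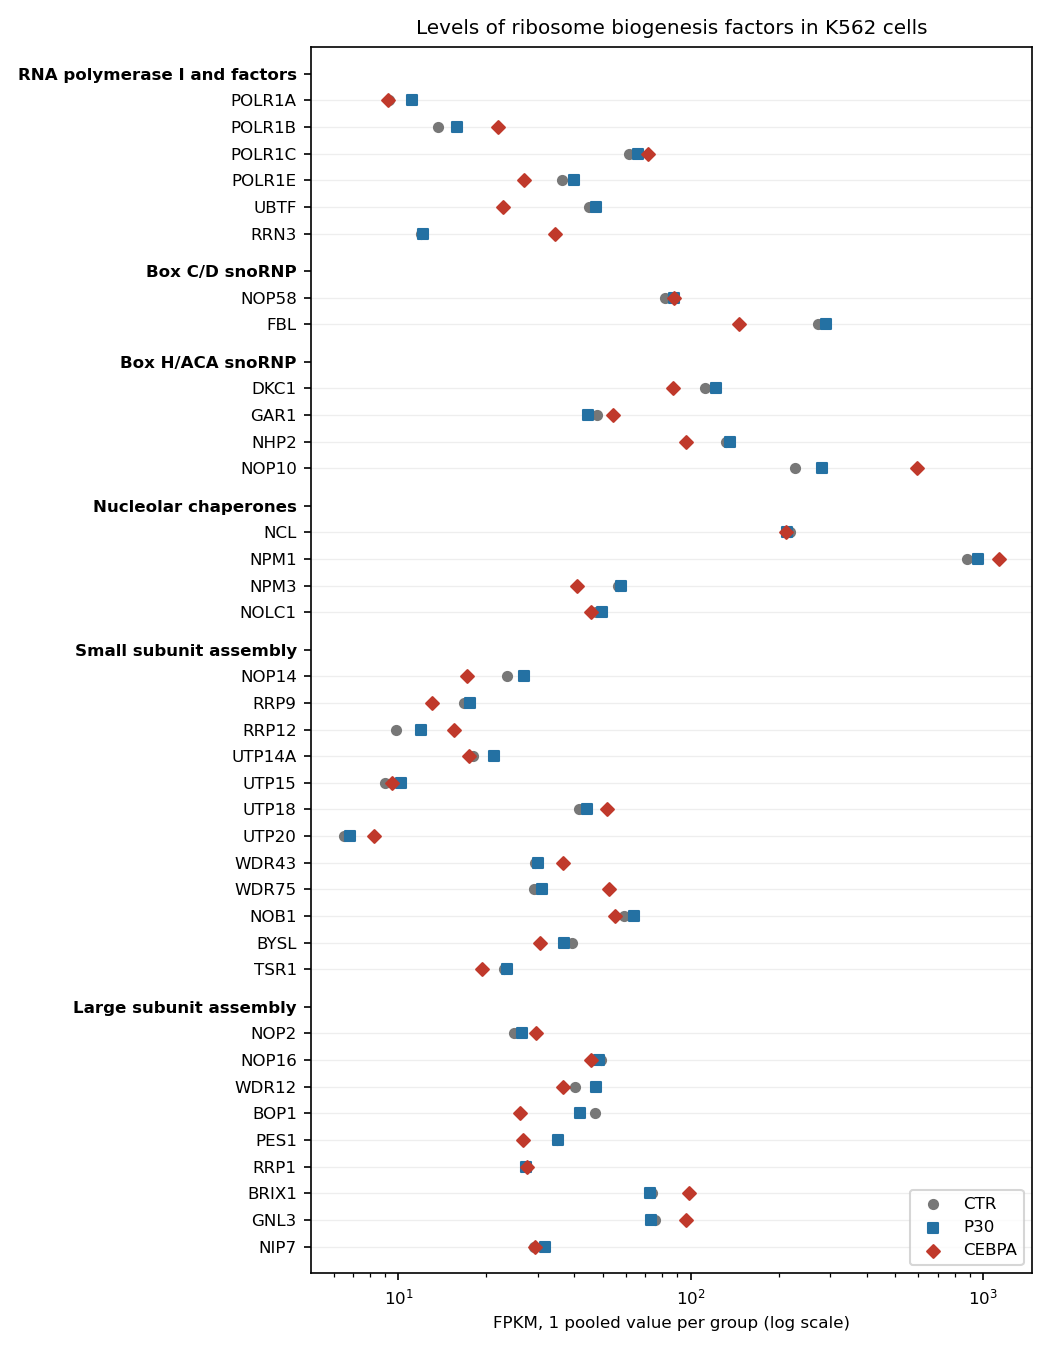
FPKM of each of the 37 biogenesis factors (rows, by role) on a log axis in CTR (grey circles), P30 (blue squares) and CEBPA (red diamonds), 1 pooled value per group and no error. CTR and P30 lie close together in every row, and the CEBPA diamond stands furthest to the right of them in RRN3 and NOP10 and furthest to the left in UBTF, FBL and BOP1.

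The RNA polymerase I group held both the member furthest up and the member furthest down in CEBPA over CTR. RRN3, the factor that makes the polymerase competent to start at the ribosomal DNA promoter, had 11.9 FPKM in CTR cells, 12.1 FPKM in P30 cells and 34.3 FPKM in CEBPA cells. CTR and P30 thus lay within 0.02 of each other on the log2 scale, and CEBPA stood 2.87-fold above CTR, a log2 change of 1.45. UBTF, the upstream binding factor that binds along active ribosomal DNA, went the other way, with levels of 44.8, 47.3 and 22.7 FPKM. CEBPA was 1.97-fold below CTR and 2.08-fold below P30, with log2 changes of -0.95 and -1.03. The ratio of UBTF to RRN3 was 3.75 in CTR, 3.90 in P30 and 0.662 in CEBPA, so that the order of these initiation factors was turned around in the CEBPA cells.

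Of the polymerase subunits, POLR1A encodes the largest, catalytic one and had 9.28 FPKM in CTR cells, 11.1 FPKM in P30 cells and 9.24 FPKM in CEBPA cells. POLR1B, the second largest subunit, had 13.6, 15.9 and 21.9 FPKM, a log2 change of 0.64 in CEBPA over CTR. The products of these genes together form the active centre, and in CEBPA over CTR POLR1A was level, at -0.00, where POLR1B was higher. POLR1C, a subunit shared with RNA polymerase III, had 61.4 FPKM in CTR cells, 66.0 FPKM in P30 cells and 71.6 FPKM in CEBPA cells. POLR1E, which takes part in initiation and elongation, had 36.2, 39.9 and 26.9 FPKM. All 6 genes of this group were slightly higher in P30 than in CTR, by 0.02 to 0.24 on the log2 scale, but RRN3, the least of these, was at -0.01 after centring on the median of all genes.

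The value of RRN3 needs a remark on its source. On GRCh37, which corresponds to the hg19 build of the alignment, RRN3 (ENSG00000085721) lies on the minus strand of chromosome 16 from 15153890 to 15188168 and overlaps PDXDC1 on the other strand. PDXDC1 stood at 33.9, 34.4 and 41.9 FPKM. RRN3 also has pseudogene copies with which reads may be shared, and of these RRN3P1 stood at 0.0178, 0.0133 and 1.03 FPKM. The level of RRN3 is uncertain to the extent that such reads were split between the copies, and their part in the difference was not tested. For UBTF (ENSG00000108312, minus strand of chromosome 17, 42282401 to 42298994) no protein-coding gene on the other strand overlapped in the annotation used. Such an overlap was found for 12 of the 37 members, namely POLR1C, RRN3, NHP2, UTP15, TSR1, NOP16, WDR12, BOP1, PES1, BRIX1, GNL3 and NIP7, and whether reads of the gene pairs were kept apart was not tested.

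The box H/ACA particle has 4 core proteins, and 1 of them parted from the others. NOP10, the smallest of them, had 227 FPKM in CTR cells, 282 FPKM in P30 cells and 597 FPKM in CEBPA cells. CEBPA was 2.62-fold above CTR and 2.11-fold above P30, with log2 changes of 1.39 and 1.08, and the P30 value was itself 0.31 above CTR, the highest such change among the 37 members. DKC1, the pseudouridine synthase dyskerin, had 112 FPKM in CTR cells, 122 FPKM in P30 cells and 87.0 FPKM in CEBPA cells. NHP2 had 132, 136 and 96.4 FPKM, so that both were below CTR in CEBPA, by 0.36 and 0.45 on the log2 scale. GAR1 had 47.8 FPKM in CTR cells, 44.5 FPKM in P30 cells and 54.1 FPKM in CEBPA cells. The products of these genes are found in equal numbers in the particle and are also part of telomerase. The FPKM ratio of NOP10 to DKC1 was 2.03 in CTR, 2.32 in P30 and 6.86 in CEBPA, and that of NOP10 to NHP2 was 1.72, 2.08 and 6.19. For NOP10 to GAR1, which was higher in CEBPA than in CTR, the ratio was 4.76, 6.35 and 11.0.

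**Figure D3:**
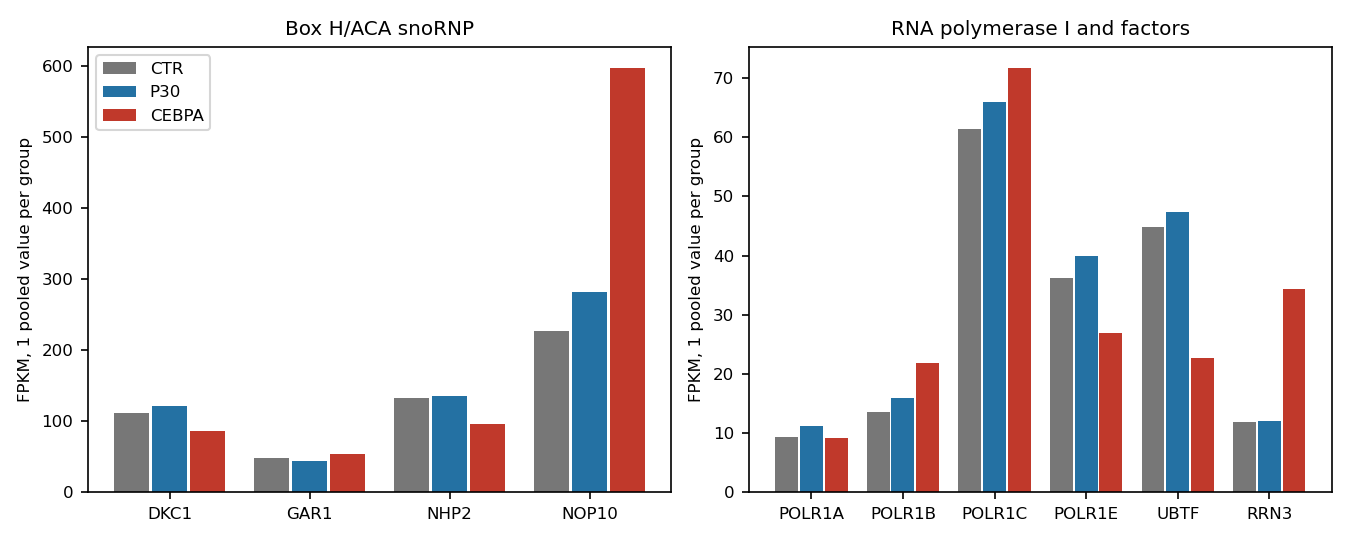
FPKM (bars from 0, 1 pooled value per group, no error) of the box H/ACA proteins and of RNA polymerase I genes in CTR (grey), P30 (blue) and CEBPA (red). NOP10 stands at 597 FPKM in CEBPA while DKC1 and NHP2 are lower there, and in the right panel RRN3 is higher and UBTF lower in CEBPA.

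NOP10 (ENSG00000182117) lies on the minus strand of chromosome 15 from 34631360 to 34635381 in GRCh37, and no protein-coding gene on the other strand overlapped it in the annotation used. Its promoter is shown because this member had the second largest change and held 2 copies of the E-box CACGTG. This motif is bound by MYC with its partner MAX. UTP18 also held 2 copies in the longer window described below, with a log2 change of 0.31 in CEBPA over CTR. The 250 bases before the transcript start of NOP10, from RefSeq on GRCh38.p14, read as follows on the minus strand, with both E-boxes in capitals.
NOP10, chr15:34343137-34343386: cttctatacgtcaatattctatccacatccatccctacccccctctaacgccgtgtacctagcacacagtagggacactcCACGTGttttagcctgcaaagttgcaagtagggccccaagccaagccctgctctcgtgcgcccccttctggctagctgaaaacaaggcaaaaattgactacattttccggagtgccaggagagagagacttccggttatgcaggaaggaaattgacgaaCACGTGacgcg
The copies span bases -170 to -165 and -11 to -6, where -1 is the last base before the start.

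Among the box C/D proteins, FBL and NOP58 differed in CEBPA. FBL, fibrillarin, is the methyltransferase of the particle and had 273 FPKM in CTR cells, 290 FPKM in P30 cells and 147 FPKM in CEBPA cells. It was 1.86-fold below CTR and 1.98-fold below P30, with log2 changes of -0.89 and -0.98. NOP58, a core scaffold protein, had 81.4 FPKM in CTR cells, 87.3 FPKM in P30 cells and 87.3 FPKM in CEBPA cells. The FPKM ratio of NOP58 to FBL was accordingly 0.298 in CTR, 0.301 in P30 and 0.596 in CEBPA. FBL (ENSG00000105202) is on the minus strand of chromosome 19 from 40325098 to 40337019 in GRCh37, where no protein-coding gene on the other strand overlapped it.

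The abundant nucleolar chaperones differed less than 1.5-fold in every comparison. NPM1, nucleophosmin, had 881 FPKM in CTR cells, 962 FPKM in P30 cells and 1136 FPKM in CEBPA cells, a log2 change of 0.37 in CEBPA over CTR. Nucleophosmin has many processed pseudogenes, with which its reads may be shared. NPM3, a relative of nucleophosmin, stood lower in CEBPA, with levels of 56.6, 57.8 and 40.9 FPKM. NCL, nucleolin, hardly differed, at 218, 213 and 212 FPKM. NOLC1, a chaperone of snoRNA particles that shuttles between nucleolus and Cajal body, had 47.3 FPKM in CTR cells, 49.5 FPKM in P30 cells and 45.7 FPKM in CEBPA cells.

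The 12 genes of small subunit assembly were divided, 6 higher and 6 lower in CEBPA over CTR, with a median log2 change of 0.02. WDR75, WDR43 and UTP15 belong to the complex that first joins the nascent precursor. WDR75 had 29.1 FPKM in CTR cells, 31.0 FPKM in P30 cells and 52.7 FPKM in CEBPA cells, a log2 change of 0.84 against CTR and of 0.74 against P30. WDR43 had 29.2, 30.1 and 36.7 FPKM. UTP15 was nearly level, with levels of 9.01, 10.2 and 9.52 FPKM. WDR75 was thus the furthest of these from CTR, and other proteins of that complex, in the wider list described below, lay on either side of 0, with log2 changes of 0.38 for HEATR1, -0.11 for CIRH1A and -0.13 for NOL11.

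Other processome proteins lay on either side. UTP18 had 41.3 FPKM in CTR cells, 44.1 FPKM in P30 cells and 51.5 FPKM in CEBPA cells. UTP20 had 6.52, 6.80 and 8.23 FPKM, so that both stood a little higher in CEBPA. NOP14 was lower there, with levels of 23.6, 26.8 and 17.1 FPKM, and its log2 change was -0.44 against CTR and -0.62 against P30. RRP9, a protein of the U3 snoRNA particle, had 16.8, 17.6 and 13.1 FPKM. UTP14A, which activates a helicase of the processome, had 18.0 FPKM in CTR cells, 21.3 FPKM in P30 cells and 17.4 FPKM in CEBPA cells. The members that act in late steps of the small subunit differed among themselves. NOB1, the endonuclease that makes the final cut of the small ribosomal RNA, had 59.2, 64.0 and 55.2 FPKM. BYSL, which binds late precursors of the small subunit, had 39.3, 37.0 and 30.5 FPKM. TSR1, a factor of cytoplasmic maturation, had 23.0, 23.6 and 19.3 FPKM, so that CEBPA was the lowest group in NOB1, BYSL and TSR1. RRP12, an export factor, differed from these with levels of 9.78, 11.9 and 15.5 FPKM, a log2 change of 0.62 against CTR and of 0.35 against P30.

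Of large subunit assembly, 9 of 11 genes had a row, with a median log2 change of 0.00 in CEBPA over CTR. BOP1, PES1 and WDR12 form 1 complex that is needed to process the large ribosomal RNA, and all 3 were lower in CEBPA. BOP1 had 46.9 FPKM in CTR cells, 41.9 FPKM in P30 cells and 26.1 FPKM in CEBPA cells, with log2 changes of -0.82 against CTR and -0.66 against P30. PES1 had 34.9, 35.0 and 26.7 FPKM, a log2 change of -0.37 against CTR. WDR12 had 40.1 FPKM in CTR cells, 47.3 FPKM in P30 cells and 36.5 FPKM in CEBPA cells, a log2 change of -0.13 against CTR and of -0.36 against P30.

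The remaining large subunit factors did not share this direction. BRIX1 had 73.7 FPKM in CTR cells, 72.3 FPKM in P30 cells and 98.4 FPKM in CEBPA cells. GNL3, the nucleolar GTP-binding protein nucleostemin, had 75.3, 72.9 and 96.6 FPKM, so that both were higher in CEBPA, by 0.41 and 0.36 on the log2 scale against CTR. NOP2, a methyltransferase of the large ribosomal RNA, had 24.9 FPKM in CTR cells, 26.6 FPKM in P30 cells and 29.6 FPKM in CEBPA cells. NIP7 had 29.2, 31.7 and 29.4 FPKM. NOP16 had 49.2, 48.4 and 45.6 FPKM. RRP1 had 27.4, 27.2 and 27.5 FPKM. NIP7, NOP16 and RRP1 hardly differed, and the furthest of their changes were 0.11 for NIP7 in P30 over CTR and -0.11 for NOP16 in CEBPA over CTR.

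In P30 over CTR the members lay in a narrow range, from -0.16 for BOP1 to 0.31 for NOP10. Their median was 0.09 and 29 of 37 (78.4%) were higher in P30, whereas the median of all 12395 genes compared was 0.02 and 55.1% were higher. Among genes over 5 FPKM the median was 0.03. In the wider list described below, 70 of 105 biogenesis genes (66.7%) were higher in P30, with a median of 0.04. Positive values were also seen in 52 of 66 cytosolic ribosomal proteins and in 16 of 20 proliferation genes. They were seen in 28 of 66 mitochondrial ribosomal proteins, in 4 of 10 genes of RNA polymerase II and in 6 of 10 of RNA polymerase III. Only BOP1, GAR1, BYSL, GNL3, NCL, BRIX1, NOP16 and RRP1 were lower in P30.

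The members were set beside a wider list of 120 other biogenesis genes and beside related machinery. Of the wider list 105 genes had a row. Their median log2 change in CEBPA over CTR was -0.08, with 44 higher (41.9%, against 49.5% of all genes) and 61 lower. At 1.5-fold 8 of them were higher and 7 lower, that is 7.62% and 6.67%, against 24.0% and 18.6% of all genes. At 2-fold 1 was higher and 0 were lower, against 14.0% and 6.92% of all genes. The gene past 2-fold was GNL2, a nucleolar GTP-binding protein of large subunit export, with levels of 70.6, 65.6 and 176 FPKM, a log2 change of 1.31. DDX52, an RNA helicase, and WDR36, a processome protein, came next, with log2 changes of 0.86 and 0.82. On the other side GLTSCR2 and NOL12, chosen after their values were seen, were at -0.81 and -0.79.

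The cytosolic ribosomal proteins, the parts of the finished ribosome, had another pattern. Their median log2 change in CEBPA over CTR was -0.39 over 66 genes, 64 of them lower, within a range of only -0.73 to 0.09. At 1.5-fold 0 were higher and 11 (16.7%) lower, against 24.0% and 18.6% of all genes. RPS3 stood the furthest down, from 3394 FPKM in CTR to 2052 in CEBPA. In place of this one-sided and narrow shift (scaled median absolute deviation 0.21), the biogenesis factors had changes of either sign with a deviation of 0.49. The 66 mitochondrial ribosomal proteins with a row had a median of -0.19. These differences between lists were not tested.

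The proliferation genes had a median of -0.66 in CEBPA over CTR, with 17 of 20 lower. Of them 11 (55%) were lower by 1.5-fold, against 18.6% of all genes, among them TYMS at -1.33 and AURKB at -1.26. The biogenesis factors, which are usually abundant in dividing cells, had a median of -0.00 in the same comparison. For the other polymerases the median was -0.48 over 10 genes of RNA polymerase II, 8 of them lower, and 0.07 over 10 genes of RNA polymerase III, 6 of them higher. The 6 members of RNA polymerase I and its factors had a median of 0.11 against CTR and of -0.06 against P30. They include RRN3 and UBTF, which are no subunits, and 3 further subunits stand in the wider list, namely TWISTNB at 0.22, CD3EAP at -0.21 and POLR1D at -0.25 against CTR.

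**Figure D4:**
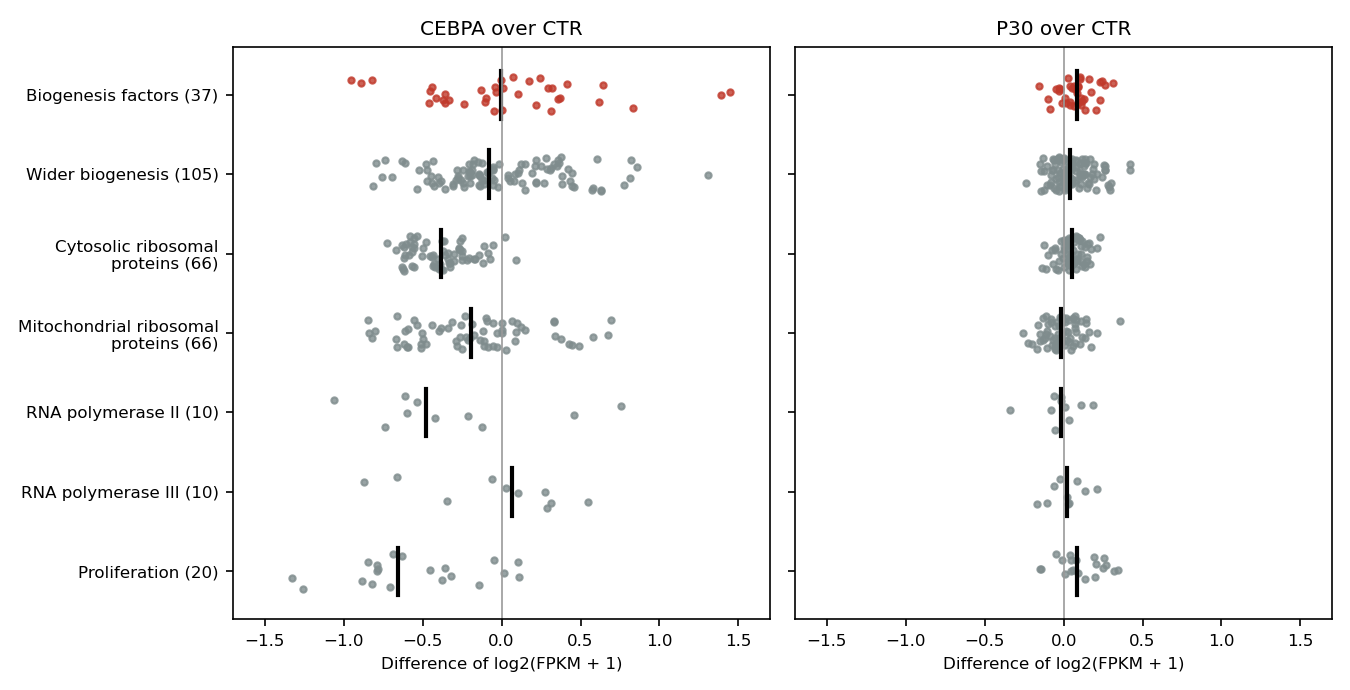
Difference of log2(FPKM + 1) of each gene (points, spread vertically for display) in CEBPA over CTR (left) and P30 over CTR (right) for the biogenesis factors (red) and related lists (grey), with the number of genes compared in parentheses and the median as a black line. On the left the biogenesis factors are centred at 0 with points on both sides, the cytosolic ribosomal proteins are centred at -0.39 and the proliferation genes at -0.66, and on the right all lists lie close to 0.

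The promoters of the members were searched for the E-box CACGTG, which reads the same on both strands. RefSeq windows on GRCh38.p14, from 250 bases before to 50 after a transcript start, were matched by symbol for 32 of the 37 members. Those of BOP1, NOP58, RRP12, NOLC1 and POLR1E were not analysed here. An E-box was found in 13 of these 32 genes (40.6%), where 12.6% of the 8558 compared genes with a window and 7.26% of all 35116 windows held one. The difference lay mostly in the bases after the start. There an E-box began within the first 50 transcribed bases in 9 of 32 members (28.1%) and in 133 of 8558 genes (1.55%). When the search was limited to the 250 bases before the start, 12.5% of the members and 11.3% of the compared genes held one. The short windows below show each of the 13 genes with up to 10 bases on either side of the E-box, which is in capitals, for the copy nearest to the start. Positions count from 1 at the first transcribed base, and each sequence is given 5′ to 3′ on the strand of its gene.

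In 9 genes this copy lay after the start.
WDR43, chr2:28894660-28894685, plus strand, E-box from base 4: cacggacgaaCACGTGgctgcagcgg
UTP18, chr17:51260540-51260565, plus strand, E-box from base 5: agcgaggttcCACGTGagcgcctgcg
FBL, chr19:39846358-39846383, minus strand, E-box from base 7: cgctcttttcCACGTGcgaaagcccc
GNL3, chr3:52686028-52686053, plus strand, E-box from base 7: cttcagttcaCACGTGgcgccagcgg
PES1, chr22:30591882-30591907, minus strand, E-box from base 14: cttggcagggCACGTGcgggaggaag
NOP14, chr4:2963376-2963401, minus strand, E-box from base 16: cgcggcccggCACGTGtcttagggta
BYSL, chr6:41921517-41921542, plus strand, E-box from base 29: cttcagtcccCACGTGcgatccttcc
GAR1, chr4:109815783-109815808, plus strand, E-box from base 32: gccagaggggCACGTGgcgccggtga
NOP2, chr12:6568242-6568266, minus strand, E-box from base 36: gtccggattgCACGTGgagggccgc

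In the other 4 genes it began before the start, in 3 of them within the last 11 bases.
RRP9, chr3:51941894-51941919, minus strand, E-box from base -5: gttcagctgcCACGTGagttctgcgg
UTP20, chr12:101280085-101280110, plus strand, E-box from base -10: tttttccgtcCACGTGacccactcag
NOP10, chr15:34343132-34343157, minus strand, E-box from base -11: aattgacgaaCACGTGacgcggtcgg
UTP14A, chrX:129905914-129905938, plus strand, E-box from base -241: accttgggcCACGTGgaaaccaggg

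**Figure D5:**
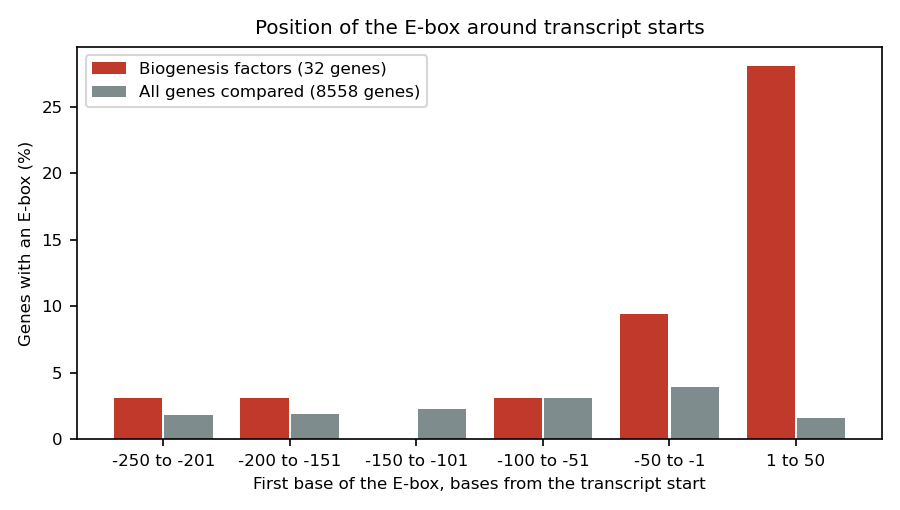
Share of genes with an E-box beginning in each bin of 50 bases from 250 before to 50 after the transcript start, for 32 biogenesis factors (red) and all 8558 compared genes with a window (grey). The members reach 28.1% in the bin after the start, where the compared genes have 1.55%, and 9.38% against 3.91% in the bin just before it.

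The presence of an E-box went with no common direction. The 13 genes with one had a median log2 change of 0.18 in CEBPA over CTR and ran from -0.89 for FBL to 1.39 for NOP10, with 7 higher and 6 lower. The 19 genes without one had a median of -0.00 and ran from -0.95 for UBTF to 1.45 for RRN3. Higher and lower members past 1.5-fold were thus found on either side, but with an E-box these were only NOP10 and FBL. BOP1 and RRP12, also past 1.5-fold, had no window and stand on neither side. A match is a description of the letters in the window and not a bound site.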

How the data were processed

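RNA was extracted from 6 K562 samples, and strand-specific paired-end libraries were sequenced. The authors aligned the reads to hg19 with TopHat under default parameters, assembled transcripts with Cufflinks on Gencode, and deposited FPKM per gene from Cuffdiff, with the replicates of a group pooled. How the rows of each table were selected and whether strand was used in counting are not given in the sources used here. FPKM alone does not give the depth per sample, and no value has an interval. The authors' own test calls were not used.

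From the deposited FPKM, differences of log2(FPKM + 1) were computed in each of 3 tables among genes over 1 FPKM in at least 1 group. A change counted as past 2-fold or 1.5-fold when it reached that size. The members, gene lists and motifs were chosen with earlier results of these data known, and the trio of BOP1, PES1 and WDR12, the complex of WDR75, WDR43 and UTP15, the pairs of genes in ratios and the bins of 50 bases were chosen after values were seen. All 37 members with a row are named, as are the lineage markers used, and up to 3 genes of each other list. HEATR1, CIRH1A, NOL11, TWISTNB, CD3EAP, POLR1D, GLTSCR2 and NOL12 of the wider list were named after their values were seen. Alternatives were a pseudocount of 0.1, centring on the median, no filter, a filter at 5 FPKM, summed symbols, genes in all 3 tables and shorter promoter windows. Computations were tested on simulated data. Overlaps came from a later Gencode release on GRCh37, the build of hg19. Tables were read with pandas 2.3.3 under Python 3.11.15, intervals came from scipy 1.17.1, medians from numpy 2.4.6 and plots from matplotlib 3.10.9. The CEBPA gene itself was not analysed here. One further lineage marker is not reported here.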

Additional observations from a re-analysis of the deposited data

How the results depend on the processing

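No paired analysis was possible because replicates were merged before deposit and each group has 1 value per gene. Neither the replicate block nor leaving out each replicate was therefore run. The limits set for calling a value moved were a shift of over 0.20 for a log2 value (the spread of all genes in P30 over CTR), 1.5 times for a count, and the 95% Wilson interval for a share, which covers counting of genes alone. Of 976 recomputed values for 165 results, 974 were inside their limit and 2 were not, and 0 members past 1.5-fold changed direction. Much of this agreement was fixed in advance. Every member exceeded 5 FPKM in each group, so that no filter and the filter at 5 FPKM could not change its value. Centring takes away the median of all genes (-0.01, -0.04 and 0.02 in the 3 comparisons), which is under the limit for a log2 value. After centring on the median, 0 members were at least 2-fold lower in CEBPA over P30, because UBTF, the 1 member there, was just past that size, and NOP14 was no longer 1.5-fold lower there, which left 3 members. The share of members with an E-box was 12.5% in the 250 bases before the start alone. The sign of 4 member changes turned with centring, the largest of them of size 0.02: POLR1A in CEBPA over CTR, NCL in CEBPA over P30, and RRN3 and PES1 in P30 over CTR.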

Other observations

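Several members host snoRNAs in their introns, so that a biogenesis factor and a guide RNA come from the same transcript. By the annotation on GRCh37, 7 of the 37 members held a small nucleolar or Cajal body RNA on their own strand: NOP58, NCL, GNL3, WDR43, TSR1, DKC1 and POLR1C. Their log2 changes in CEBPA over CTR ran from -0.36 for DKC1 to 0.36 for GNL3, with a median of 0.10 and 4 of 7 higher. The other 30 members had a median of -0.02. All members past 1.5-fold were among these 30, which make up most of the 37. With only 7 hosts, little can be read from the absence of such members among them.

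Motifs other than the E-box were close to the background of compared genes. The letters TTGCNNAA, a form of the C/EBP motif searched on both strands, were in the window of 3 of 32 members (9.38%) and of 10.5% of compared genes. The 3 members were NCL, GAR1 and UBTF, with log2 changes of -0.04, 0.18 and -0.95 in CEBPA over CTR. The CCAAT box was in 13 of 32 members (40.6%) and in 43.2% of compared genes. Its members included both RRN3 at 1.45 and FBL at -0.89.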
